A study of Mus musculus with 2 samples.

Results

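A group of 1509 nuclei from mouse salivary gland carried RNA of Unc5c and Pex5l, genes best known from neurons, together with RNA of epithelial cells and of secreted salivary proteins. The nuclei were chosen by their own counts: at least 1000 unique molecular identifiers (UMIs, 1 for each captured RNA molecule), under 27% of them from 8 abundant secretory genes (Mucl2, Scgb1b27, Scgb2b27, Prol1, Smgc, Scgb2b26, Pip and Car6), and at least 1 UMI in at least 4 of 10 marker genes. The 10 markers were Unc5c, Pex5l, Cfap20dc, Kctd8, Col11a1, Frmpd4, Lrrk2, Slc6a15, Dync1i1 and Kcnb2. Of 142799 barcodes in the files, 21480 passed the UMI and secretory limits and are called nuclei here, and 1509 of these met the marker limit and are called members.

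The study profiled RNA of single nuclei with the 10x Chromium Single Cell 3' kit v2, from entire salivary gland tissue of 20 day old mice, with no selection of a cell type. The control library came from C56BL/6 Csf2+/- mice, which keep 1 copy of Csf2, the gene for the cytokine GM-CSF, and the null library from C56BL/6 Csf2-/- mice, which keep none. Both genotypes share the strain label, age and tissue, so the control animals also lack 1 copy. The labels do not say how many mice were pooled, or which of the salivary glands were taken, and with 1 library a genotype no difference between genotypes has a replicate check and none is tested.

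The 10 markers have known roles outside salivary gland. UNC5C is a receptor for netrins, guidance proteins that steer growing axons and also act in branching epithelia. PEX5L (TRIP8b) is an auxiliary subunit of HCN channels, KCTD8 is an auxiliary subunit of the GABA-B receptor and KCNB2 is a voltage-gated potassium channel of the Kv2 type. LRRK2 is a kinase that phosphorylates Rab GTPases, DYNC1I1 is an intermediate chain of cytoplasmic dynein, COL11A1 is a fibrillar collagen chain, FRMPD4 is a postsynaptic scaffold protein and SLC6A15 is a transporter of neutral amino acids. Mouse salivary tissue consists of submandibular, sublingual and parotid glands: their acini make, respectively, seromucous, mucous and serous secretions, sublingual mucous acini are capped by serous demilunes, and intercalated, striated and excretory ducts carry the saliva away.

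The control library held 699 members, or 8.34% of its 8384 nuclei (exact binomial 95% interval 7.75% to 8.95%), and the null library 810, or 6.19% of 13096 (5.78% to 6.61%). All intervals cover counting error only. The log2 ratio of the null to the control share was -0.43 (-0.58 to -0.28), but over all barcodes of each file it was 0.09 (-0.05 to 0.24), and with a secretory limit of 35% it was 0.22. The direction of this ratio therefore followed the choice of denominator and of secretory limit, and no order of the genotypes is read from it. Members had median depths of 3050 (control) and 2288 UMIs (null), against 2814 and 1995 UMIs in the other nuclei. The libraries shared 1367 barcodes, 23 of them nuclei, and no member. Csf2 itself had 0 UMIs in the members of either library, 2 and 0 in the other nuclei and 5 and 0 over all barcodes, a depth at which its level gives no check of the genotypes.

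Most members formed 1 population. The nuclei were grouped by similarity of expression without the 10 markers, which gave 22 clusters, and 1230 of the 1509 members (81.5%) fell in the cluster numbered 5. That cluster held 608 control and 825 null nuclei, and 85.8% of its 1433 nuclei were members. The cluster led by Dcdc2a, Rasgrf1, Casr, Myo16, Pex5l and Unc5c had a counterpart at other settings, each holding from 81.3% to 82.0% of the members. When each library was grouped on its own, 556 of 610 nuclei of the matching control cluster and 677 of 827 of the null one were members.

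**Figure D1:**
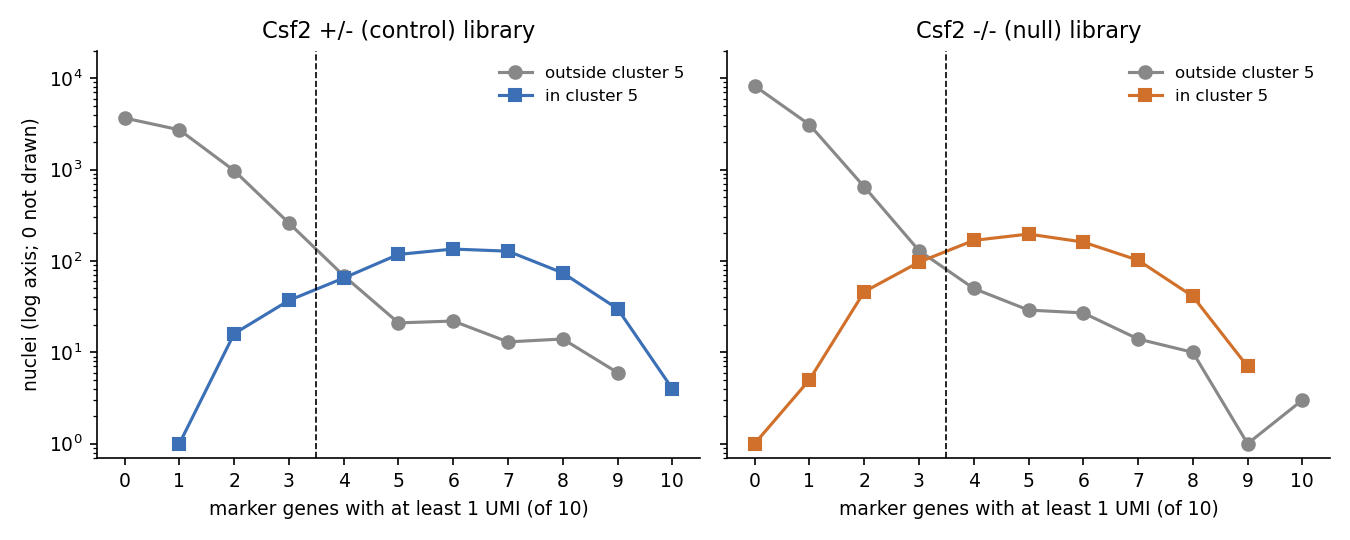
Number of nuclei (log axis; counts of 0 are not drawn) against how many of the 10 marker genes had at least 1 UMI, in the control and the null library, for nuclei in cluster 5 and outside it. The dashed line is the limit of 4 markers. Nuclei outside cluster 5 mostly become fewer with marker number, while those of cluster 5 peak at 5 or 6 markers.

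The limit of 4 markers lay between these populations but did not part them fully. Of the nuclei just outside the limit, with 3 markers, 297 came from the control library, 12.5% of them in cluster 5, and 227 from the null library, 42.7% of them in cluster 5. Of those just inside, with 4 markers, there were 134 and 218, of which 48.5% and 77.1% were in cluster 5. Smgc, a gene the marker limit did not use, had 5864 and 7498 CPM (UMIs of the gene scaled to a common total of 1000000 UMIs) in control and null nuclei with 0 markers. Its level was 9586 and 19116 CPM at 3 markers, 19847 and 28692 CPM at 4, and 35491 and 31299 CPM at 5. Cluster 5 also held 54 control and 149 null nuclei with fewer than 4 markers, and their Unc5c stood at 1161 and 974 CPM.

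The 279 members outside cluster 5 were deeper and mixed. There were 145 control and 134 null nuclei of this kind. They had medians of 4752 and 3871 UMIs against 2815 and 2136.5 in cluster 5, and held 34.7% and 41.3% of all member UMIs. They were spread over other clusters, with 53 in cluster 3 (fibroblast genes), 44 in cluster 6 (high Muc19), 30 in cluster 4 (striated duct genes) and 27 in cluster 18. Their largest barcodes had 43987 (control) and 171879 UMIs (null), and 14 and 24 of them had at least 10000 UMIs, against 1 and 0 in cluster 5. Scrublet marked 45 control members as doublets, but in the null library it marked 0.0687% of nuclei, a rate at which the caller has not worked, so doublets were kept. Whether these barcodes hold more than 1 nucleus was not tested, and values are given below for all members or for the 1230 members in cluster 5, as each sentence says.

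Unc5c was the most widely detected of the 10 markers, with a UMI in 92.8% of control and 91.5% of null members. In the other nuclei, at the lower median depths given above, the shares were 13.4% and 6.14%. Its level was 1484 CPM in control and 1102 CPM in null members, against 56.02 and 39.8 CPM in the other nuclei. Pex5l was found in 63.8% and 56.9% of members, at 566 and 487 CPM against 19.6 and 15.7 CPM. Cfap20dc (711 and 621 CPM), Kctd8 (726 and 544 CPM) and Frmpd4 (890 and 804 CPM) were detected in 72.1% to 84.4% of members. Col11a1 (219 and 208 CPM), Dync1i1 (214 and 207 CPM), Kcnb2 (178 and 154 CPM) and Slc6a15 (158 and 135 CPM) were lower and were found in 22.3% to 43.5% of members. Dync1i1 was as high elsewhere, at 260 and 209 CPM in cluster 12 and 182 and 173 CPM in cluster 13, against 252 and 282 CPM in cluster 5. Lrrk2 stood at 748 CPM in control and 300 CPM in null members, against 59.1 and 35.4 CPM in the other nuclei.

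These values chose the members, so they are a description. A view that leaves each gene out of its own selection gave a like picture: in nuclei with at least 4 of the other 9 markers, the held-out gene stood from 11.9-fold (Dync1i1) to 29.3-fold (Unc5c) above nuclei with 0 of the other 9 in the control library, and from 8.42-fold (Lrrk2) to 35.6-fold (Unc5c) in the null library. Those nuclei come from the same libraries as the choice. With every nucleus thinned to 1000 UMIs, Unc5c was still seen in 72.4% and 69.5% of members against 5.52% and 3.52% of other nuclei. Barcodes under 1000 UMIs with a secretory share of at least 27%, taken as free RNA, held Unc5c at 161 CPM (control) and 65.8 CPM (null), each above the level in the other nuclei.

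**Figure D2:**
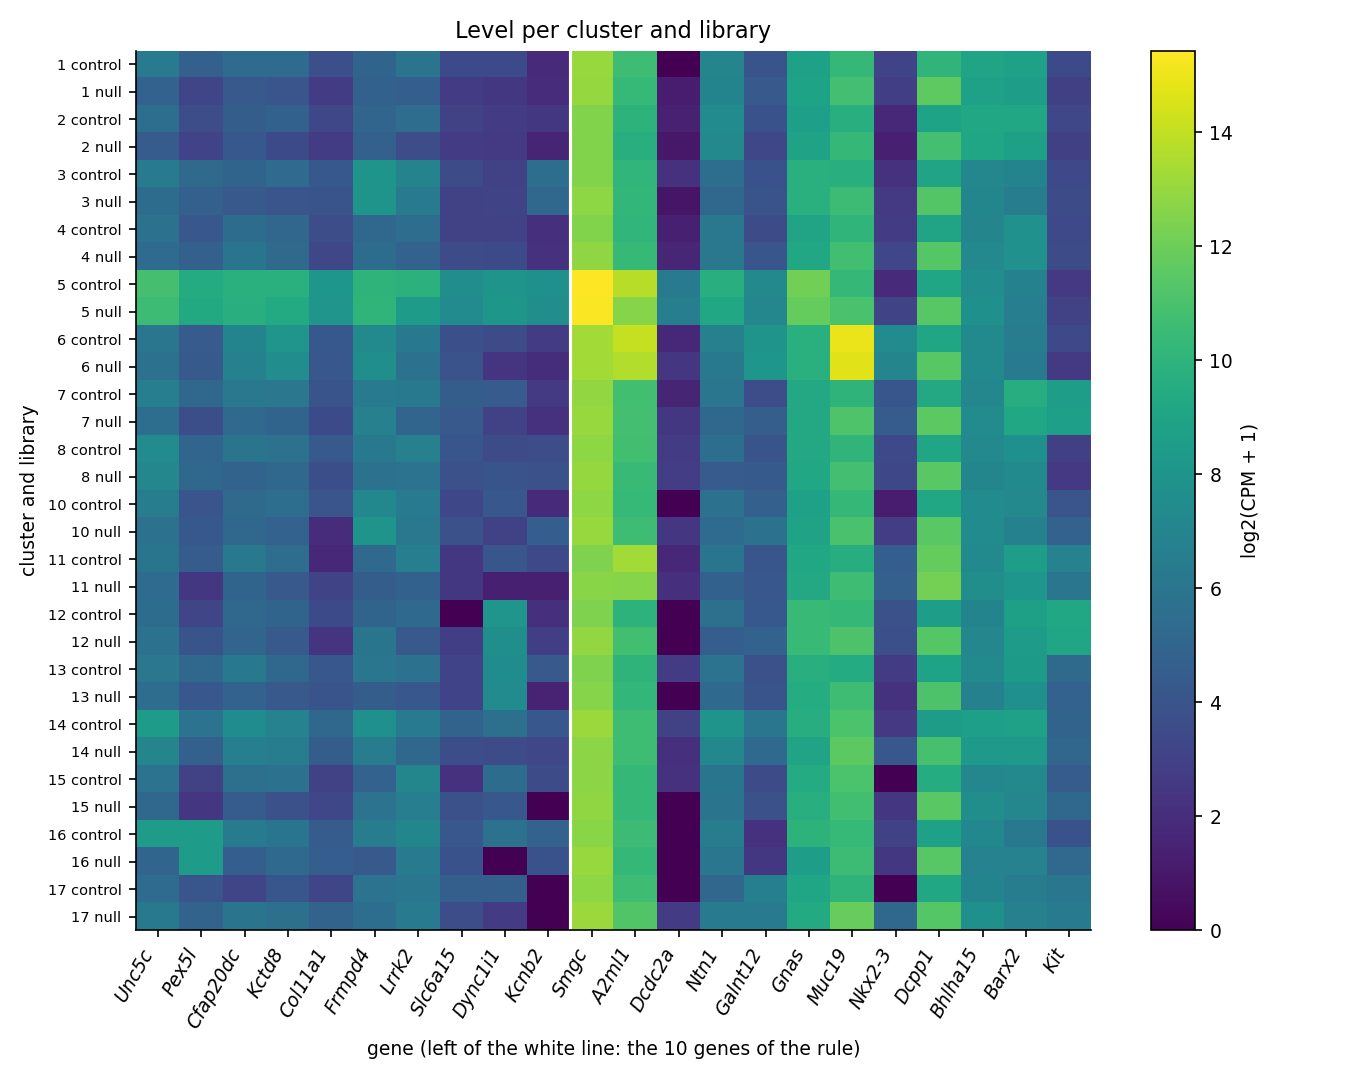
Level of the 10 marker genes (left of the white line) and of other genes of the text (columns) in each cluster with at least 50 nuclei in both libraries (rows, by library), as log2(CPM + 1) on the colour scale. Cluster 5 stands out for Unc5c, Smgc, Dcdc2a, Ntn1 and Gnas, Dync1i1 is as high in cluster 12 and Pex5l is also high in cluster 16, while A2ml1 and Galnt12 are high in clusters 5 and 6 and Muc19 in cluster 6.

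Counting the 10 markers themselves, 253 of 12926 measured genes (1.96%) were at least 2-fold higher in all members than in other nuclei in each library, and 629 (4.87%) at least 2-fold lower. Without the markers 243 were higher. For members in cluster 5 against nuclei that were neither members nor in cluster 5, 327 of 12837 genes (2.55%) were higher and 2006 (15.6%) lower. The median log2 ratio over all genes was -0.25 (control) and -0.22 (null) for this comparison. Because the same counts defined the groups, these counts describe the population and test nothing.

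Smgc was the most abundant gene that set these nuclei apart. It encodes submandibular gland protein C, a mucin-like product of the developing submandibular gland. It stood at 44205 CPM in control and 41086 CPM in null members of cluster 5, against 5981 and 7574 CPM in nuclei outside, log2 ratios of 2.89 (2.87 to 2.90) and 2.44 (2.43 to 2.45). Per nucleus, Smgc was a median of 4.48% of UMIs in control members of cluster 5 (quartiles 3.59% and 5.36%) and 4.17% in null ones (3.48% and 4.87%). It was 0.943% and 0.955% in nuclei of cluster 6 and 0.580% and 0.772% in clusters 1 and 2, the largest clusters. Smgc is one of the genes in the 27% limit, which leaves out some barcodes rich in it. Among excluded barcodes of at least 1000 UMIs, the highest Smgc share was 20.9% (control) and 7.19% (null) with at least 4 markers. With fewer markers it was 14.4% and 17.7%, and in members it was 8.19% and 7.21%. Most excluded control barcodes were not richer: their median was 1.81% with and 1.83% without the markers, against 4.06% in control members.

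Free RNA also carried Smgc, with 18561 CPM (control) and 19911 CPM (null). Scaled by the other 7 secretory genes, that RNA came to an estimated 32.1% and 35.8% of member UMIs. Taking it away left 27982 and 22327 CPM of Smgc in members, whereas in the other nuclei nothing was left (-933 and -54.6 CPM). The estimate takes all RNA of those 7 genes in nuclei as free, which was not tested. Under it, the Smgc summed over the other nuclei did not exceed that of free RNA, and that of the members did. The other nuclei are not alike, since the 54 control and 149 null ones in cluster 5 had 41666 and 38578 CPM. Mucl2, Scgb1b27, Scgb2b27, Scgb2b26, Pip, Car6 and Prol1, the other abundant secretory genes, were each within 2-fold of the outside nuclei in members of cluster 5, with log2 ratios from -0.54 (Prol1) to -0.08 (Mucl2 and Scgb2b26).

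**Figure D3:**
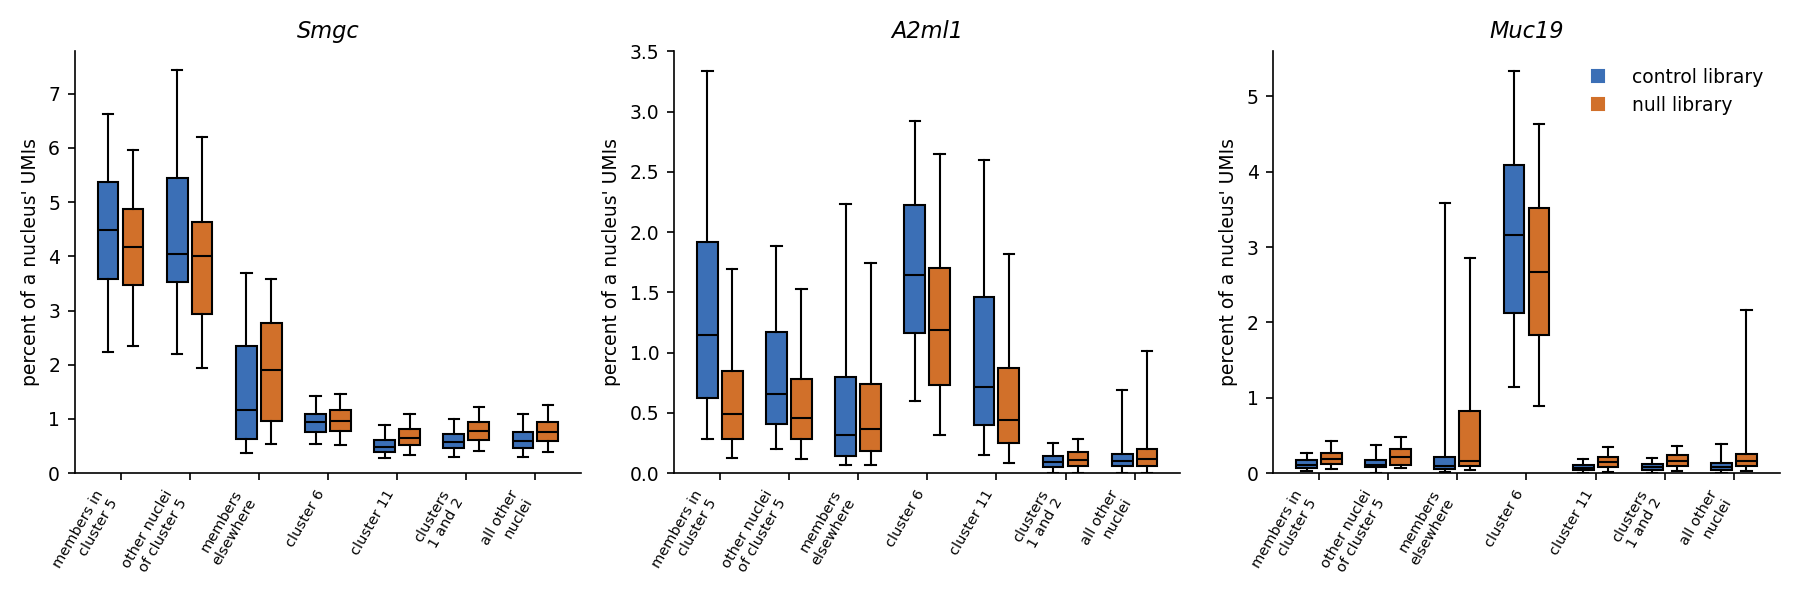
Share of each nucleus's UMIs taken by Smgc, A2ml1 and Muc19, in percent, for members in cluster 5 and for the other sets named on the axis, by library; the line in each box is the median, the box spans the quartiles and the whiskers run from the 5% to the 95% point. Smgc medians of 4.48% and 4.17% in members of cluster 5 lie above those of the sets outside that cluster, A2ml1 is shared with clusters 6 and 11, and the Muc19 median is highest in cluster 6.

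A2ml1, which encodes a protease inhibitor of the alpha-2-macroglobulin family, was next. It stood at 14198 CPM in control and 6468 CPM in null members of cluster 5, against 2032 and 2351 CPM outside. The gene was shared with other clusters, such as 17416 and 12929 CPM in cluster 6 and 9887 and 6360 CPM in cluster 11, compared with 1612 and 1267 CPM in cluster 1 and 1009 and 867 CPM in cluster 2. Gnas, the gene for the stimulatory G protein alpha subunit, had 4550 and 3601 CPM against 561 and 609 CPM outside, and 889 and 898 CPM in cluster 6. Stk39, a kinase that regulates cation-chloride cotransporters, had 4868 and 4147 CPM against 1613 and 1408 CPM. Ghr, the growth hormone receptor, had 3164 and 2609 CPM against 633 and 554 CPM. Mfsd6 (1526 and 1205 CPM against 156 and 169 CPM) and the cyclic nucleotide phosphodiesterase gene Pde10a (1119 and 1208 CPM against 297 and 119 CPM) were also among the abundant genes. Mast4, Bach2, Ccser1, Arhgef28, Erbb4, Trps1, Nckap5, Asph, Ank2, Plcb1, Ints6l and Zfp462 had at least 677 CPM in both libraries and were at least 2-fold above the outside nuclei.

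The most selective genes were of low abundance. Dcdc2a, a doublecortin-domain gene, stood at 81.9 and 99.0 CPM in members of cluster 5 against 1.68 and 1.45 CPM outside, log2 ratios of 5.61 and 6.10. Myo16, an unconventional myosin, had 97.9 and 115 CPM against 2.54 and 1.22 CPM. Rasgrf1, a Ras exchange factor, had 70.0 and 80.9 CPM against 1.59 and 1.14 CPM. Ndst4, a heparan sulfate sulfotransferase gene, and Lrriq1 followed, with log2 ratios from 4.69 to 5.25. Lipo4, Myot, Snap91, Lepr, Shc3, Glt1d1, Stard4, Abcc3 and Sec14l4 had log2 ratios from 3.55 (Sec14l4, control) to 5.17 (Lipo4, null). Casr, the calcium-sensing receptor, was low in absolute terms, at 16.02 and 13.6 CPM against 0.430 and 0.153 CPM. Over all members the 15 highest genes by the same rank again began with Dcdc2a, at 58.9 and 66.1 CPM, and included Cntnap2 in place of Abcc3. Of the 192 UMIs of Cntnap2 in control members, 80 came from 1 nucleus.

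**Figure D4:**
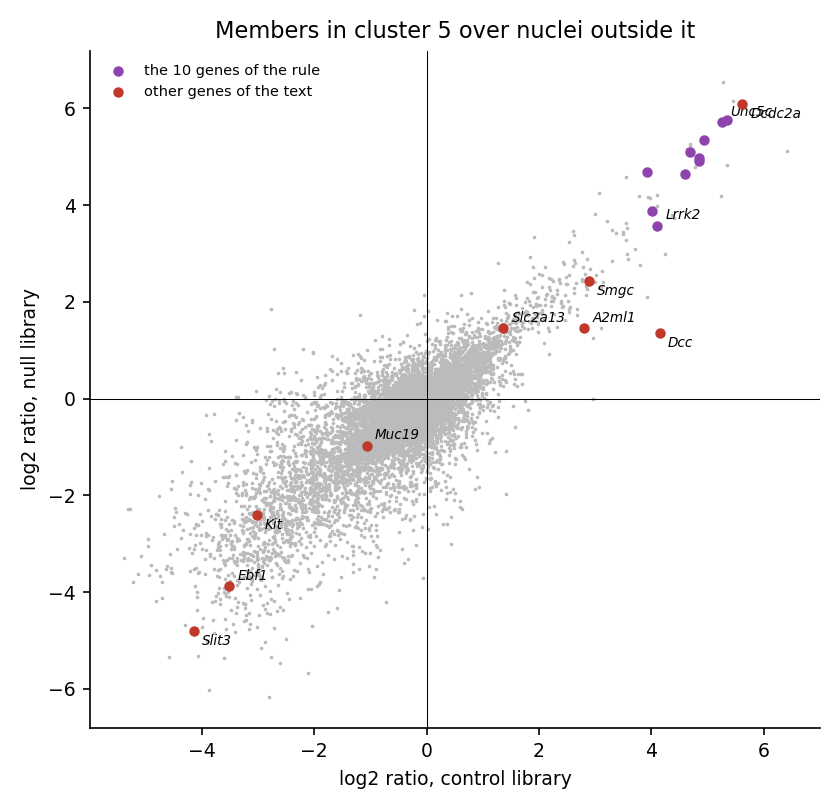
Log2 ratio of CPM in members of cluster 5 over nuclei outside it, control library across and null library up, 1 point a gene. The 10 marker genes (purple) and Dcdc2a lie at the upper right, Smgc (2.89 and 2.44) and A2ml1 (2.80 and 1.46) below them, and Slit3, Ebf1 and Kit at the lower left.

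Genes of stromal cells led the lower side. Slit3 had 15.4 and 11.01 CPM in members of cluster 5 against 271 and 305 CPM outside, and the transcription factor gene Ebf1 had 56.9 and 33.0 CPM against 651 and 483 CPM. Bicc1, Ldb2, Ebf3, Rbms3, Glis3, Plxna4 and Zfp521 were also among the lowest. Over all members the 10 lowest were Flt4, Cd84, Ntng2, Unc5d, Speg, Lrrc3b, Shank3, Slc14a2, Lyve1 and Kcnk13, none above 12.3 CPM in either library or set.

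Epithelial genes stood near the level of the outside nuclei. Of 11 epithelial genes, none was at least 2-fold higher and 1 (Krt7, a ductal keratin) at least 2-fold lower in members of cluster 5 than outside, where most nuclei are also epithelial. Epcam, an adhesion molecule of epithelia, stood at 46.9 and 77.0 CPM, Cdh1 (E-cadherin) at 194 and 172 CPM, and the epithelial splicing factor gene Esrp1 at 457 and 388 CPM. The 11 genes summed to 1376 and 1334 CPM against 1103 and 1144 CPM outside and 932 and 969 CPM in free RNA. Epcam was at 36.5 and 66.3 CPM in cluster 10 (macrophage genes), so its level alone does not mark a nucleus as epithelial. Neuronal markers were at or near 0: in the members of cluster 5, 6 of 12 had 0 UMIs, Elavl4, Elavl3, Tubb3, Chat and Prph among them, and the highest, Ret, was at 18.4 and 25.3 CPM against 39.0 and 45.7 CPM outside. Only 1 of the 12 had enough UMIs to be measured, so their zeros carry little weight. One control member outside cluster 5, with 30111 UMIs, carried all 12 neuronal markers, including 74 UMIs of Elavl4 and 35 of Snap25.

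Markers of other cell types were often below the outside nuclei, beside 15.6% of all genes at least 2-fold lower and 2.55% higher. At least 2-fold lower in both libraries were 6 of 9 fibroblast markers, 5 of 7 endothelial, 5 of 7 pericyte, 5 of 8 macrophage, 4 of 4 measured lymphoid and 3 of 6 measured Schwann markers, and none was 2-fold higher. The same held for 4 of 6 measured basal duct markers, 3 of 7 measured myoepithelial markers and 5 of 7 measured ionocyte markers. The 4 lacrimal genes (Pax6, Lcn11, Obp1a and Esp1) had 0 UMIs in members of cluster 5. They summed to only 0 and 0.305 CPM outside, too low for a comparison. Over all members the numbers of lower markers were smaller, with 0 of 9 fibroblast and 4 of 7 endothelial markers lower, beside 4.87% of all genes. Free RNA and RNA of the deeper members move with that difference, and their part was not tested.

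Genes of the acinar machinery mostly stood near the level of the outside nuclei. The water channel gene Aqp5 had 120 and 159 CPM in members of cluster 5 against 112 and 142 CPM outside, the cotransporter gene Slc12a2 1427 and 1070 CPM against 1340 and 944 CPM, and the muscarinic receptor gene Chrm3 2566 and 2340 CPM against 2413 and 2275 CPM. Of the 18 genes of this list, 1 was at least 2-fold higher and 4 lower, beside 2.55% and 15.6% of all genes. The higher one was Chrm1, the M1 muscarinic receptor, at 14.8 and 14.9 CPM against 2.06 and 3.39 CPM. The 4 lower ones were Itpr2 (an inositol trisphosphate receptor), Adra1a and Adrb1 (adrenergic receptors) and Atp1b1 (a sodium pump subunit), and Itpr2 had 54.0 and 41.4 CPM against 359 and 301 CPM. Bhlha15 (MIST1), a transcription factor of secretory cells, stood at 186 and 207 CPM against 350 and 313 CPM outside, and at 573 and 545 CPM in cluster 2. Bhlha15 in the members was close to its level in clusters with marker genes of other cell types, such as 175 and 169 CPM in cluster 10 (macrophage genes) and 142 and 197 CPM in cluster 15 (endothelial genes). Ano1, the acinar chloride channel, was at 133 and 126 CPM against 219 and 200 CPM.

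The seromucous and mucous lists each had some raised genes, beside 2.55% of all genes at least 2-fold higher and 15.6% lower. Of 10 measured seromucous submandibular-type genes, only Smgc was at least 2-fold higher and none lower. Of 7 measured mucous sublingual-type genes, 2 were higher: Galnt12, which starts mucin O-glycosylation (147 and 139 CPM against 25.5 and 40.3 CPM), and Agr2, a mucin-folding chaperone (60.5 and 49.8 CPM against 16.4 and 18.1 CPM). Nkx2-3, a transcription factor high in the Muc19 cluster, was lower, at 2.97 and 8.42 CPM against 13.3 and 18.4 CPM. Muc19, the gel-forming mucin of sublingual acini, stood at 1219 and 2014 CPM against 2550 and 3948 CPM, log2 ratios of -1.06 and -0.97. The outside mean holds cluster 6, at 32854 and 27484 CPM, and by median share per nucleus Muc19 was instead higher in members of cluster 5, at 0.112% and 0.192% of UMIs against 0.0815% and 0.166% outside. Clusters 1 and 2 had 1218 and 1795 CPM and 835 and 1215 CPM of Muc19. Over all members, which include 44 nuclei of cluster 6, Muc19 was at 2670 and 3486 CPM against 2543 and 3933 CPM in the other nuclei.

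Demilune and parotid genes were not raised. Dcpp1, Dcpp2 and Dcpp3, genes of demilune and parotid cell proteins, were within 2-fold of the outside nuclei in each library, with log2 ratios from -0.40 to -0.07. Of 9 parotid genes, of which 4 were measured, 5 (Prh1, Prb1, Prpmp5, Dnase1 and Prr27) had 0 UMIs in members of cluster 5. Amy1, which encodes salivary amylase, was at 11.3 and 3.24 CPM against 22.4 and 15.4 CPM. Of 7 measured intercalated duct genes, Dcdc2a was higher and Gfra3, Kit, Tfcp2l1 and Elf5 were lower. Kit, a receptor of intercalated duct cells, had 5.34 and 7.12 CPM against 43.3 and 37.6 CPM outside and 390 and 420 CPM in cluster 7, and Gfra3 had 0 and 0.647 CPM. Of 11 measured striated or granular duct genes, none was higher and 6 were lower. These duct counts stand beside 2.55% of all genes higher and 15.6% lower.

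By these lists the population held RNA of epithelial genes near the outside level and raised Smgc, a secreted product. No list for a gland or acinar type had as many as 3 of its markers at least 2-fold higher. The population is therefore left without a cell type name and called by its leading genes. Smgc, from the seromucous submandibular-type list, was raised beside A2ml1, Galnt12 and Agr2, of which A2ml1 and Galnt12 were higher still in cluster 6. No gland is read from Smgc alone. The O-glycosylation gene Galnt5 behaved like Galnt12: both were high in cluster 5 (Galnt5 48.6 and 35.6 CPM, Galnt12 149 and 139 CPM) and in cluster 6 (68.4 and 51.5 CPM, 253 and 277 CPM), but low in cluster 2 (4.47 and 4.59 CPM, 13.9 and 8.66 CPM).

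Of 29 measured gland transcription factors, 1 was at least 2-fold higher and 9 at least 2-fold lower in members of cluster 5, beside 2.55% and 15.6% of all genes. The higher one was Tfap2b, an AP-2 factor, at 220 and 232 CPM against 76.0 and 74.2 CPM. The lower ones were Sox10, Etv4, Etv5, Barx2, Foxi1, Elf5, Tfcp2l1, Nkx2-3 and Trp63. Barx2, a homeobox gene of salivary acini, stood at 109 and 94.6 CPM in cluster 5 and 90.9 and 78.3 CPM in cluster 6, compared with 579 and 439 CPM in cluster 2. Sox10, an acinar and glial factor, had 54.0 and 77.7 CPM against 163 and 284 CPM outside. Esrrg, an orphan nuclear receptor gene, was the most abundant of the list, at 7298 and 5636 CPM against 4300 and 3753 CPM, and Spdef, a factor of mucous cells, had 322 and 360 CPM against 176 and 200 CPM. Both were within 2-fold.

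Among clusters with at least 50 nuclei in each library, the 2 besides cluster 5 with the highest mean correlation of log2(CPM + 10) with the members over genes, a description of levels within these 2 libraries, were cluster 6 (r = 0.940 for the control, 0.953 for the null library) and cluster 2 (0.939 and 0.946). Cluster 1 had 0.924 and 0.953, so the order, first place included, rests on small differences. Clusters 18 (pericyte genes) and 9, with 39 and 38 control nuclei, were left out by that minimum. In the null library their r was 0.967 and 0.948. Each cluster profile includes any members it held, so the 2 sides can share nuclei and r is partly a likeness to itself. Cluster 6 held 44 members and cluster 2 held 13. Cluster 18 held 19 among its 65 null nuclei, the barcode of 171879 UMIs included. Against cluster 6, 380 of 7890 genes (4.82%) were at least 2-fold higher in members in each library and 220 (2.79%) lower. The highest included Shc3, Rasgrf1, Myo16, Tnfaip8, Dcdc2a, Pdzrn3, Mboat2 and Luzp2, and Tnfaip8 stood at 296 and 379 CPM in members against 8.75 and 16.7 CPM. The lowest were Hpse2, Adcy2, Pacsin1, Atp13a5, Ptgdr, Nkx2-3, Muc19 and Mgat5, and Hpse2, a heparanase relative, had 108 and 128 CPM against 1456 and 1411 CPM. Against cluster 2, 593 of 8391 genes (7.07%) were higher and 183 (2.18%) lower. Gabbr2, Abcc3, Ppp2r2b and Cntnap2 joined Myo16, Dcdc2a, Tnfaip8 and Rasgrf1 on the higher side, and Ddah1, Dgkg, Ripor2, Apol7a, Egfem1, Il1rapl2, Hs3st3b1 and Myrip were on the lower side.

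Known partners of the marker genes are read against the shares over all genes, 2.55% higher and 15.6% lower, in each list that follows. A marker counts as higher in its own list because it helped choose the members, so only the other genes describe partners. Of 15 measured netrin and UNC5 genes, Unc5c, Dcc, Ntn1 and Ntn4 were higher and Unc5b, Unc5d, Ntng1 and Flrt2 lower in members of cluster 5. Ntn1, the secreted ligand netrin-1, stood at 815 and 632 CPM against 113 and 86.1 CPM (log2 2.85 and 2.88), and 174 and 154 CPM in cluster 2. Dcc, the other netrin receptor, was low, at 21.4 and 11.01 CPM against 1.20 and 4.27 CPM. Of 6 measured GABA-B genes, Gabbr2, a subunit of the receptor, was higher (61.1 and 48.6 CPM against 2.97 and 3.51 CPM) beside Kctd8, whereas Gabbr1, the other subunit, had 16.02 and 14.9 CPM against 24.98 and 19.7 CPM.

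Channel partners of Pex5l were at or near 0. Hcn3 and Hcn4 had 0 UMIs in members of cluster 5, and Hcn2 had 1.19 and 0.647 CPM. Of 3 measured genes of that list only Pex5l was higher, and of 3 measured Kv2 genes Kcnb2 was the only higher one. Of 11 measured dynein genes Dync1i1 was the only higher one, and its ubiquitous relative Dync1i2 had 96.1 and 80.9 CPM against 119 and 113 CPM. Of 16 measured collagen and basement membrane genes Col11a1 was higher and 14 lower: Col5a1 and Col5a2, chains that assemble with it in fibrils, had 8.30 and 4.53 CPM and 19.0 and 18.8 CPM. Of 15 LRRK2 and Rab genes, only Lrrk2 was higher and Rab8b, Rab29 and Rab43 were lower, while Rab10, a main substrate, stood at 235 and 232 CPM against 231 and 203 CPM. Of 11 measured postsynaptic genes Frmpd4 and Dlg2 (192 and 205 CPM against 36.9 and 39.0 CPM) were higher, and Dlg4, Shank2 and Shank3 lower. Among 7 measured SLC6 transporters, Slc6a15 was the only higher one.

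Signalling genes gave a similar mixture. Of 11 genes of calcium and cyclic nucleotide signalling, Pde10a, Camk2d (383 and 351 CPM against 157 and 132 CPM) and Ryr2 (17.8 and 10.4 CPM against 3.74 and 2.56 CPM) were higher and 6 lower. Of 17 measured growth receptors and ligands, the neuregulin receptor gene Erbb4 was higher (1378 and 1374 CPM against 579 and 629 CPM) and 7 were lower. Egfr, the EGF receptor, had 132 and 152 CPM against 365 and 341 CPM. Of 16 cell cycle genes none was higher and 4 were lower, beside the same shares of 2.55% and 15.6%, and Mki67, a marker of proliferation, had 19.0 and 23.3 CPM against 23.9 and 26.9 CPM.

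Among the markers' neighbours on the chromosomes, a run on chromosome 15 stood out after the values were seen. In the RefSeq order, Slc2a13, Lrrk2 and Smgc follow each other, and all were higher in members of cluster 5. Lrrk2 is a marker and helped choose the members, so only Slc2a13 and Smgc are apart from the marker limit. Slc2a13, a myo-inositol transporter gene, had 498 and 506 CPM against 193 and 185 CPM (log2 1.37 and 1.45), Lrrk2 999 and 410 CPM against 58.3 and 34.4 CPM, and Smgc the values above. Muc19 overlaps Smgc on the same strand, and how reads of the overlap were assigned is not given in the sources used here. Beyond the run, Abcd2 was lower with 1 and 0 UMIs, Cntn1 had 2 and 7 UMIs and Gxylt1 had log2 ratios of 0.11 and -0.03. Over all 10 markers, 12 neighbouring genes were measured, of which 3 were higher (Slc2a13, Smgc and Lrriq1, the neighbour of Slc6a15) and 2 lower (Bmpr1b and Usp13), beside 2.55% higher and 15.6% lower over all genes.

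Promoters are shown for Smgc, the leading secreted product, for Unc5c, the leading marker, and for Lrrk2, the neighbour of Smgc, to set their sequences side by side. Each runs from 250 bases before to 50 bases after the RefSeq start in GRCm38.p6, 5′ to 3′ on the gene's plus strand. The deposited counts use GRCm39, and no coordinate of theirs is used. Capitals mark TATAAA, the core TATA box, searched on both strands. The Smgc promoter lies at chr15:91838078-91838377, that of Unc5c at chr3:141465314-141465613 and that of Lrrk2 at chr15:91672974-91673273.
Smgc: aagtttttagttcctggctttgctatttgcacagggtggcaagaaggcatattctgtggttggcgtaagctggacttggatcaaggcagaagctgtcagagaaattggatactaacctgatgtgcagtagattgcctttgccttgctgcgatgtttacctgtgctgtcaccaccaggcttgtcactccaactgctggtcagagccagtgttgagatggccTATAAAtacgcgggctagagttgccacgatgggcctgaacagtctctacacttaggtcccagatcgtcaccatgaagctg
Unc5c: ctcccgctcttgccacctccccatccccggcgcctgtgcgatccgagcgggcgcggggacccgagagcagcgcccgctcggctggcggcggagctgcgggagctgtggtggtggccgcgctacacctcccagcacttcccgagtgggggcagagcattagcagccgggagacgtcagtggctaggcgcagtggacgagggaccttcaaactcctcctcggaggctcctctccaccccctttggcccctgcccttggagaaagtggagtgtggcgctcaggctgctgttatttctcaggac
Lrrk2: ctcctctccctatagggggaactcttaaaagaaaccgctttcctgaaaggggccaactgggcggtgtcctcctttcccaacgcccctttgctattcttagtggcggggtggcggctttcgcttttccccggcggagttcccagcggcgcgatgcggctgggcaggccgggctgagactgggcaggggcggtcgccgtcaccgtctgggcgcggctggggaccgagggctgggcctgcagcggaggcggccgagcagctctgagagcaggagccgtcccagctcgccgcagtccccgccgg
The Smgc window holds TATAAA with its first base at position -30, a match to the letters and no evidence of use. The 9 promoters found for 7 of the 10 markers (none was listed for Pex5l, Slc6a15 or Kcnb2) had no TATAAA on either strand, against 13.6% of 32851 RefSeq promoters of the same length. AAGGTCA, the half-site of ESRRG-type nuclear receptors, was in 1 of 9 (Col11a1) against 4.72%, and GCCNNNGGC, the AP-2 core, in 1 of 9 (Dync1i1) against 16.6%.

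Over all members, the leading genes varied with marker number and library. With 4, 5, 6 and 7 or more markers, Smgc in control members was 19847, 35491, 35060 and 38087 CPM, and in null members 28692, 31299, 35509 and 25032 CPM. In members of cluster 5 alone Smgc ran from 39016 to 45275 CPM (control) and from 40276 to 41831 CPM (null) over the same steps, with 41831 CPM at 7 or more. The null members with all 10 markers, 3 barcodes outside cluster 5 with a median of 43001 UMIs, had 9543 CPM. Tfap2b was 78.2 CPM in control members with 4 markers and 194 to 224 CPM in those with more. Muc19 went the other way, from 6694 CPM with 4 markers to 1442 CPM with 7 or more in the control library, and from 6173 to 2509 CPM in the null library. The share of members in cluster 5 was lowest, 48.5% and 77.1%, at 4 markers.

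Between genotypes, 64 of 9030 genes (0.709%) were at least 2-fold higher in null than in control members and 170 (1.88%) at least 2-fold lower. In members of cluster 5 the numbers were 42 (0.59%) and 47 (0.66%) of 7123. Without the 1 control member that carries all neuronal markers, 115 genes in place of 170 were lower over all members. The 12 genes with the lowest bounds there (Nrg3, Rbfox1, Fgf14, Kcnip4, Elavl4, Cadps, Ctnna2, Gabrg3, Alk, Grm7, Lingo2 and Elavl2) took most of their control UMIs from that nucleus, such as 117 of Nrg3 and 92 of Alk. They are not among the genes named for cluster 5.

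**Figure D5:**
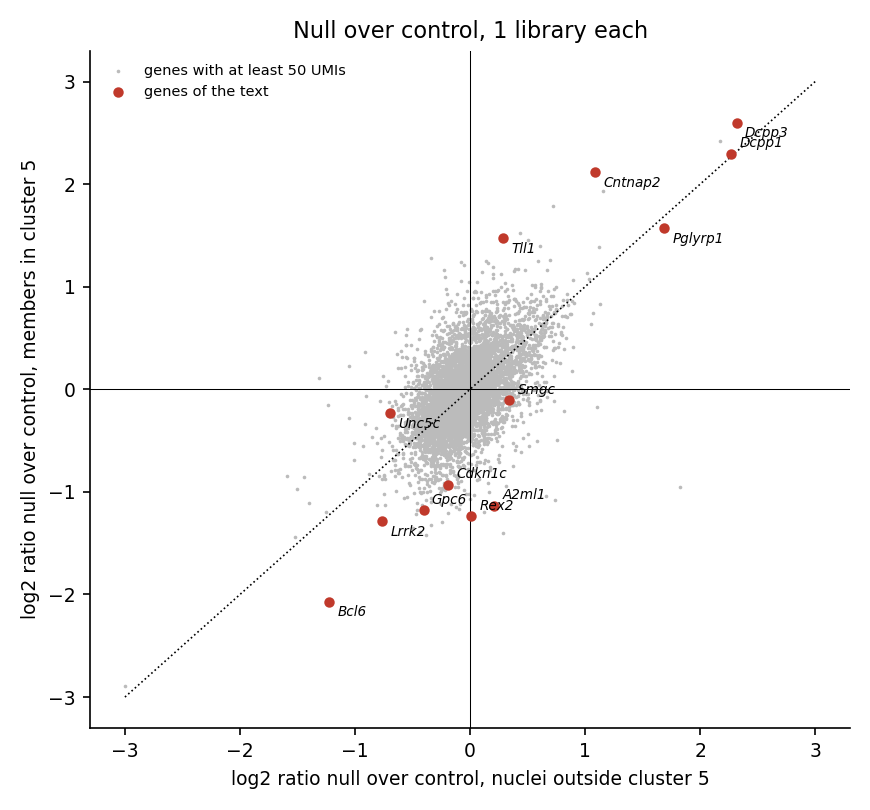
Log2 ratio of null over control CPM for each gene, in nuclei outside cluster 5 across and in members of cluster 5 up. Dcpp1 and Dcpp3 are high on both axes, while A2ml1 (-1.13 against 0.21), Tll1 and Cntnap2 lie away from the diagonal.

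The widest differences in favour of the null library were in Dcpp genes, and the free RNA moved with them. Dcpp3 went from 944 to 5726 CPM in members of cluster 5, a log2 ratio of 2.60 (2.52 to 2.68), beside 2.32 in nuclei outside and 2.30 in free RNA. Dcpp2 (2.42) and Dcpp1 (2.30) were alike, and Wfdc18 (1.39), Nupr1 (1.13) and Pglyrp1 (1.57) also had ratios above 1 outside cluster 5. Of the 89 genes at least 2-fold apart in members of cluster 5, 76 had the free RNA on the same side of 0 and 19 were at least 2-fold apart there too. Over all 7123 measured genes the median log2 ratio was -0.37 in free RNA and -0.05 in members of cluster 5. The same counts over all genes were not made, so the 76 and 19 are not read further. The part of free RNA in these genes was not tested.

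Some genes differed in these nuclei more than outside, a contrast that 1 library a genotype cannot test. A2ml1 was 14198 CPM in control and 6468 CPM in null members of cluster 5, a log2 ratio of -1.13 (-1.17 to -1.10), beside 0.21 outside and -0.16 in free RNA. It was -0.43 in cluster 6 and -0.60 in cluster 11, which also carry the gene, and from -0.78 to -1.38 in members of cluster 5 split by marker number. Per nucleus, A2ml1 was a median of 1.15% of UMIs in control and 0.491% in null members of cluster 5. Tll1, a metalloprotease of the BMP1 family, went from 90.8 to 252 CPM (1.47, 1.20 to 1.75), beside 0.28 outside and 0.09 in free RNA. Cntnap2, a neurexin-family adhesion gene, went from 59.3 to 257 CPM (2.12, 1.80 to 2.45), beside 1.08 and 0.70. Its ratio was also above 0 in cluster 6, at 3.61 (0.99 to 8.97), and in cluster 11, at 2.98 (0.22 to 8.39). Those values rest on 1 control and 23 null UMIs and on 1 and 12 UMIs. The Cntnap2 difference is therefore not shown to be particular to cluster 5. Tll1 and Cntnap2 were higher in the null library at each marker number in members of cluster 5. Their ratios ran from 1.32 to 1.81 for Tll1 and from 1.58 to 3.08 for Cntnap2. In the nuclei of cluster 5 with fewer than 4 markers, Tll1 had a ratio of 0.32 (-0.39 to 1.06), A2ml1 of -0.49 (-0.60 to -0.37) and Cntnap2 of 2.41 (1.21 to 3.91).

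On the lower side in the null library, Bcl6, a transcriptional repressor gene, went from 239 to 57.0 CPM (-2.07, -2.42 to -1.73), beside -1.23 outside and -1.25 in free RNA. Txnip (-1.13), Nr4a3 (-1.44) and Pde1c (-1.05) were also below 0 outside, at -0.74, -1.52 and -0.55. Rex2 went from 53.4 to 22.7 CPM (-1.24, -1.84 to -0.66) beside 0.01 outside and -0.99 in free RNA. Cdkn1c, a cell cycle inhibitor gene, went from 251 to 132 CPM (-0.93) beside -0.20 outside and -0.21 in free RNA, and was well above the outside level of 28.5 and 24.9 CPM in both libraries. Msantd2, Tsfm, Gpc6, Pdzrn3 and Lipo4 had ratios from -1.39 to -0.90.

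Of the 10 markers, Lrrk2 differed most between genotypes. Its log2 ratio was -1.32 (-1.44 to -1.20) over all members and -1.28 (-1.42 to -1.15) in cluster 5, beside -0.76 outside and -1.57 in free RNA, lower in the null library in each of these sets. Over all members Unc5c (-0.43) and Kctd8 (-0.42) were next, and the others lay between -0.23 and -0.04. In cluster 5 Unc5c was at -0.23 and Kctd8 at -0.33, and Dync1i1 (0.24), Frmpd4 (0.09) and Col11a1 (0.04) were above 0. Smgc differed little in members of cluster 5, -0.11 (-0.12 to -0.09), where nuclei outside had 0.34 and free RNA 0.10.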

How the data were processed

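Counts of UMIs per gene and barcode were deposited by the authors as 2 matrices of 26033 genes, made with Cell Ranger 7.0.0 on GRCm39, per the submitters' processing notes. The annotation, and whether intronic reads were counted, are not given in the sources used here. Members and gene lists were chosen with earlier results of these data known.

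From the counts, UMIs were summed over each set of nuclei in each library and scaled to CPM. Log2 ratios have exact conditional binomial 95% intervals. Genes needed at least 50 UMIs over both sets, in each library where both were compared, and a gene was called at 2-fold. No test was made, since there was 1 library a genotype. Named genes were the extremes by log2 ratio or by interval bound, without mitochondrial, ribosomal, sex-linked and unnamed genes; for cluster 5 the ranks were added after the data were seen, as were the 20 most abundant genes 2-fold higher. Nuclei were clustered with Scanpy 1.11.5 (2000 variable genes without the 10 markers, 30 components, 20 neighbours, Leiden resolution 1.0). Scrublet was run per library and doublets were kept. On simulated counts with 4-fold changes, 100 of 100 raised and 97 of 99 lowered genes were recovered over 12882 genes for members against other nuclei. For null against control, 100 of 100 and 79 of 80 were recovered over 9085 genes. The simulated counts had Poisson noise only, without differences between nuclei, free RNA or mixed barcodes. They check the calculation and not the calls in these data. Alternatives covered the marker number, UMI and secretory limits, depth, doublets, free RNA, scaling and clustering. Promoters came from RefSeq (GRCm38.p6), matched by symbol. Results for some listed genes are not reported here.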

Additional observations from a re-analysis of the deposited data

Results flagged for a closer look

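Some barcodes that the secretory and UMI limits leave out also carried the markers, and sets with more than 3 such barcodes are given. Of nuclei, 8.34% (control) and 6.19% (null) had at least 4 of the 10 markers. Among barcodes of at least 1000 UMIs and a secretory share of 27% or more, fewer did. They were 74 of 11015 control (0.672%) and 66 of 4572 null barcodes (1.44%). In the null library these had a median of 3.94% of UMIs from Smgc and 714 CPM of Unc5c, against 1.96% and 77.5 CPM in the other excluded barcodes of that depth. In the control library they had 1.81% and 363 CPM against 1.83% and 173 CPM. Below 1000 UMIs, 38 of 48962 control and 9 of 56421 null barcodes past the secretory limit had at least 4 markers. The same held for 10 of 250 null barcodes under it.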

How the results depend on the processing

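No paired analysis was possible because each genotype has 1 library. Each value below is set against the result as reported. The log2 ratio of the member share (-0.43) was -0.585 with at least 3 markers, -0.156 with at least 2000 UMIs, -0.587 with a secretory limit of 20%, and changed sign to 0.219 at 35% and 0.0938 over all barcodes. The number of genes lower in members (629) was 189 with at least 3 markers, 948 with at least 5, 1704 after thinning, 307 against nuclei with 0 markers, 2471 with a 1 UMI minimum, 1550 and 1351 after taking away free RNA scaled by 8 or 7 secretory genes, and 1303 and 1357 in the control or null library alone. It was 2006 for members of cluster 5, 1994 for the whole cluster and 983 for members of at most 10000 UMIs, these 3 and the 7-gene scaling being chosen after seeing the data. The number higher (253) was 532 with a 1 UMI minimum and 421 in the control library alone. List markers lower (27) were 13 with at least 3 markers and 52 both after thinning and in cluster 5. Genes lower in null members (170) were 343 and 97 with at least 3 and 5 markers, 39 after thinning, 428 and 28 with minimums of 20 and 200 UMIs, 349 after taking away free RNA, 47 for members of cluster 5 and 46 for the whole cluster. Genes higher in null members (64) were 205 and 12 at those minimums, 401 after taking away free RNA, 42 for members of cluster 5 and 41 for members of at most 10000 UMIs. The cause of these shifts was not tested. Muc19 over other nuclei changed sign: in the null library to 0.298 with at least 3 markers and 0.357 against nuclei with 0 markers, and in the control library to -0.475 (at least 5 markers), -0.0113 (35%), -0.896 (thinned), -1.06 (members of cluster 5), -1.12 (whole cluster), and, leaving out 1 marker, -0.0281 (Unc5c), -0.409 (Cfap20dc), -0.522 (Kctd8), -0.359 (Frmpd4), -0.288 (Lrrk2) and -0.0234 (Slc6a15). Smgc over other nuclei stayed between 1.94 and 2.89 in the control and 1.82 and 2.44 in the null library under 25 settings each, and A2ml1 in null over control members between -1.20 and -0.67 under 27. Depth limits detection of the lower markers: Kcnb2 had a UMI in 23.7% of control members.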
